A study of Mus musculus with 8 samples.

Results

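The nuclear genes for the subunits of respiratory chain complexes I, II and III were examined in macrophages of mouse pancreatic islets. The members were the rows of the deposited count table whose symbol was on a list of 49 subunit genes, 36 for complex I (Nduf genes), 4 for complex II (Sdh genes) and 9 for complex III (Uqcr genes and Cyc1), out of 48440 genes in all. The symbol Ndufa13 stood on 2 rows, 50 rows in total, and the row that the GENCODE annotation names Yjefn3 was left out. No measured value entered this rule, but the list was chosen with earlier results of these data known.

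The macrophages were sorted on CD11b and F4/80 from islets of male wild-type C57BL/6J mice, aged 16 weeks at collection. The chow group (replicates 1 to 4) had been fed 8% fat, 21% protein and 71% carbohydrate, and the high-fat diet (HFD) group (replicates 5 to 8) 45% fat, 20% protein and 35% carbohydrate, each for 8 weeks. Each of the 4 libraries per diet pooled 2 mice, so the library is the unit of replication, and p-values measure the spread between pools. In such bulk samples, fewer cells that express a gene and less of its RNA per cell cannot be told apart.

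Complex I takes electrons from NADH, complex II takes them from succinate, and both pass them to ubiquinone. Complex III passes them on from ubiquinol to cytochrome c, and complexes I and III pump protons while doing so. Complex II is also an enzyme of the tricarboxylic acid cycle and is built from nuclear-encoded subunits alone, whereas complexes I and III also hold subunits made from mitochondrial DNA. In macrophages these complexes are known for the switch between oxidative and glycolytic metabolism on activation, with succinate oxidation at complex II and reverse electron flow into complex I as a source of reactive oxygen species.

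No member passed the threshold between the diets, and the summed level of each complex overlapped between them. Sdha and Sdhd of complex II were the most abundant members by count, and Uqcrh, Uqcrc2, Ndufs1 and Ndufa10 led complexes III and I. Uqcrq, with the smallest p of any member, and Uqcr10, the only member whose diet groups did not overlap, were lower in HFD. Both are small accessory subunits of complex III, picked as extremes of the list. A single gene made up each share: 2.44% of tested members at an unadjusted edgeR p under 0.05, against 5.35% of all tested genes. For diet groups without overlap it was 2.04% of all 49 members, and 2.44% of the tested ones, against 3.39% of all tested genes. The level of Uqcr10 is also uncertain, because a near-identical stretch lies in another gene. Most members had low counts. Their median level over the 8 libraries was 7.07 CPM (counts scaled to a common library size by the trimmed mean of M values, TMM). Their spread between libraries was wide. Per kb of exon, the tested members had a median of 4.87 CPM, against 5.38 CPM for all tested genes.

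Promoters are shown here because nuclear respiratory genes are known to share binding sites for the factors NRF1, GABPA (an ETS factor), YY1 and the estrogen-related receptors (ERR), which join these genes into 1 programme. RefSeq promoter windows of GRCm38.p6, from 250 bases before to 50 bases after the start of transcription, were found for 41 of the 49 members. The letters searched on both strands were GCATGCGC for NRF1, CCGGAAG for ETS, AAGATGGCG for YY1 and TCAAGGTCA for ERR. At least 1 of these was present in 17 of the 41 members (41.5%), against 17.8% of 17450 other protein-coding genes with such windows. The share was 14.6% against 3.91% for NRF1, 19.5% against 12.9% for ETS, 12.2% against 2.11% for YY1 and 2.44% against 0.372% for ERR, whose single match was in Sdhd. These are letter matches and not shown to be bound, and a window without a match says only that these letters were not in it.

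The 5 stretches below, each from 80 bases before the start to 30 bases from it and read 5′ to 3′ on the strand of the gene, are a selection from the members with an NRF1 or ETS match, which is in capitals, taken where values in every library are given and the match lies within the stretch. Sdhb and Uqcr11 hold both motifs, Sdhd and Uqcrh hold the ETS letters in reverse, and Ndufa11 holds 2 overlapping NRF1 matches, 1 on each strand. Matches in Ndufa6, Ndufa8, Ndufb6, Ndufb7, Ndufs3, Ndufs8 and Uqcrc1 are not shown. They lie at chr4:140961191-140961300 (plus strand) for Sdhb, chr10:80406792-80406901 (minus) for Uqcr11, chr9:50603820-50603929 (minus) for Sdhd, chr4:116075041-116075150 (minus) for Uqcrh and chr17:56717682-56717791 (plus) for Ndufa11.
Sdhb: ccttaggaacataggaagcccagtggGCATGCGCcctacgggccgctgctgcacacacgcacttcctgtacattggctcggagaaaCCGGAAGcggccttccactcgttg
Uqcr11: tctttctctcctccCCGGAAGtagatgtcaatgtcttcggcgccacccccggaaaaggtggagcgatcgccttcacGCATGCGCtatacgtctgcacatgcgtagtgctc
Sdhd: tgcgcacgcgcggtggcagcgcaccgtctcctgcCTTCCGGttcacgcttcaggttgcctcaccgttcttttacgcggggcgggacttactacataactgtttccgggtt
Uqcrh: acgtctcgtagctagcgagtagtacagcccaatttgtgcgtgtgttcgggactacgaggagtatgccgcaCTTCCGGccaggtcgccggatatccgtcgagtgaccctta
Ndufa11: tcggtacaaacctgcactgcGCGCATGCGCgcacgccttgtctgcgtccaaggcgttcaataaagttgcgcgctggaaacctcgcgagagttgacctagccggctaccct

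The YY1 letters, which contain an ATG, were found in 5 of the 33 complex I windows, all downstream of the start, and in 0 of the 3 windows of complex II and 0 of the 5 of complex III. They are shown in capitals with up to 8 bases on either side, at chr6:126849099-126849123 (minus) for Ndufa9, chr3:51408917-51408941 (minus) for Ndufc1, chr13:114388045-114388067 (minus) for Ndufs4, chr13:73328433-73328457 (minus) for Ndufs6 and chr10:80249465-80249489 (plus) for Ndufs7. The log2 fold changes of HFD over chow were 2.04 (SE 1.42) for Ndufc1, 2.03 (SE 1.51) for Ndufs7 and 1.03 (SE 1.13) for Ndufs4. They were -0.42 (SE 0.76) for Ndufa9 and -0.68 (SE 1.47) for Ndufs6. None was past the threshold and each 95% interval held 0. Whether these 5 genes differ from each other between the diets was not tested.
Ndufa9: tgtgggagAAGATGGCGgccgccgt
Ndufc1: tgcggaacAAGATGGCGccgtccgt
Ndufs4: cctacaggAAGATGGCGgcggtc
Ndufs6: tcaccggcAAGATGGCGgcggtgct
Ndufs7: ccgaggccAAGATGGCGgcgctggc

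Library totals ran from 4288665 to 6391247 counts, so 3 counts, the limit that a count of 0 allows in 1 library, correspond to 0.468 to 0.708 CPM. Counts were amplified without molecular identifiers, and such floors cover counting error only. The 6 macrophage markers summed to 1884 to 2521 CPM in every library. Of the markers of other cells, islet endocrine transcripts summed to 444 to 1756 CPM on chow and 953 to 1832 CPM on HFD, and acinar transcripts to 0.225 to 3249 and 36.5 to 1551 CPM. Stellate and fibroblast transcripts summed to 1.87 to 24.0 CPM on chow and 8.64 to 393 CPM on HFD, whereas all 4 neutrophil markers were at 0 in all libraries. Dendritic cell transcripts (7 markers, with Ccr7 at 0 throughout) summed to 249 to 301 CPM on chow and 138 to 268 CPM on HFD, and 3 of the 4 HFD libraries were below every chow library. The part of dendritic cell RNA in the member levels was not tested.

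**Figure D1:**
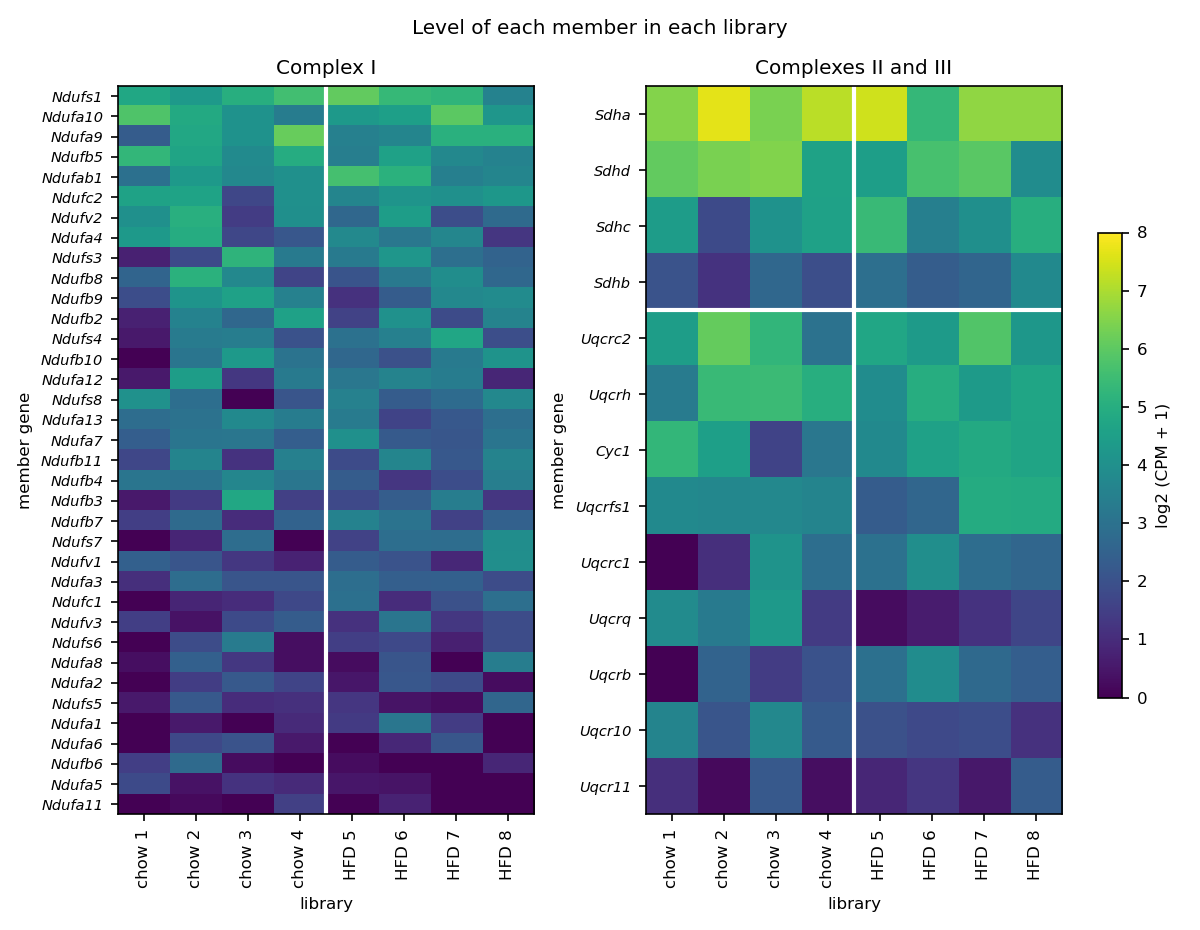
Heat map of log2 (CPM + 1) for the 36 complex I members on the left and the 13 members of complexes II and III on the right, with 1 column per library and the diets parted by a white line. Sdha is the brightest row at 39.6 to 203 CPM, and chow replicate 1 has the most rows at 0, 10 of the 49 members.

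The genes differed in how reliably they were seen. Of the 49 members, 35 had counts in all 8 libraries, and 26 of the 392 values (6.63%) were 0. Chow replicate 1 held 10 of these zeros and chow replicate 2, the deepest library, held none. The other 6 libraries held 1 to 4 each. Zeros fell mostly on short transcripts. Of the 17 members whose principal transcript is under 700 bases 12.5% of values were 0, against 6.67% for the 15 members of 700 to 1200 bases and 0.735% for the 17 longer members. Per kilobase of principal transcript the median levels of the 3 length classes were close, at 7.6, 6.8 and 8.0 CPM per kb.

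The test used 10129 genes with enough counts, and 41 of the 49 members were among them. The 8 that were not were Ndufa1, Ndufa5, Ndufa6, Ndufa8, Ndufa11, Ndufb6, Ndufs5 and Uqcr11, all with means of 0.342 to 2.42 CPM over the 8 libraries. The tested members had a median SD of log2 (CPM + 1) of 1.03 over the libraries, and all tested genes one of 0.91. Their median level per kb of exon was 4.87 CPM, against 5.38 CPM for all tested genes, with 20 of the 41 above the median gene. Ranks across the 8 libraries were close to unrelated among members, with a median Spearman coefficient of 0.02 over 820 pairs, 0.05 within a complex and -0.02 between complexes. These pairs share libraries and depth, and low counts weaken such coefficients.

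Complex I summed to 248, 385, 297 and 327 CPM in chow replicates 1 to 4 and to 300, 321, 317 and 276 CPM in HFD replicates 5 to 8. Every HFD library lay inside the chow range. Complex II summed to 181, 290, 192 and 192 CPM on chow and to 241, 104, 182 and 159 CPM on HFD, with chow replicate 2 and HFD replicate 5 high and HFD replicate 6 low. Complex III summed to 107, 162, 147 and 72.9 CPM on chow and to 74.1, 111, 149 and 113 CPM on HFD, so that the ranges were much alike. The ratio of the HFD mean to the chow mean was 0.964 for complex I, 0.801 for complex II and 0.916 for complex III, each with a difference smaller than the SD of the chow libraries (57.1, 51.2 and 40.2 CPM). As shares of the 49 genes, complex I took 46.0% to 59.9%, complex II 19.4% to 39.2% and complex III 12.1% to 23.1% of the CPM in a library.

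Over all 49 genes, chow replicate 2 had the highest sum, 837 CPM, and chow replicate 1 and HFD replicate 6 the lowest, 536 CPM each. Chow replicate 1 also had the lowest sum of islet endocrine transcripts, 444 CPM, and chow replicate 2 one of 1756 CPM. HFD replicates 6 and 8 had endocrine sums of 1574 and 1832 CPM beside member sums of 536 and 548 CPM. Chow replicates 3 and 4 were at 1076 and 1077 CPM beside 637 and 592 CPM. HFD replicates 5 and 7 were at 985 and 953 CPM beside 614 and 648 CPM. The part of endocrine RNA in the member levels was not tested.

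**Figure D2:**
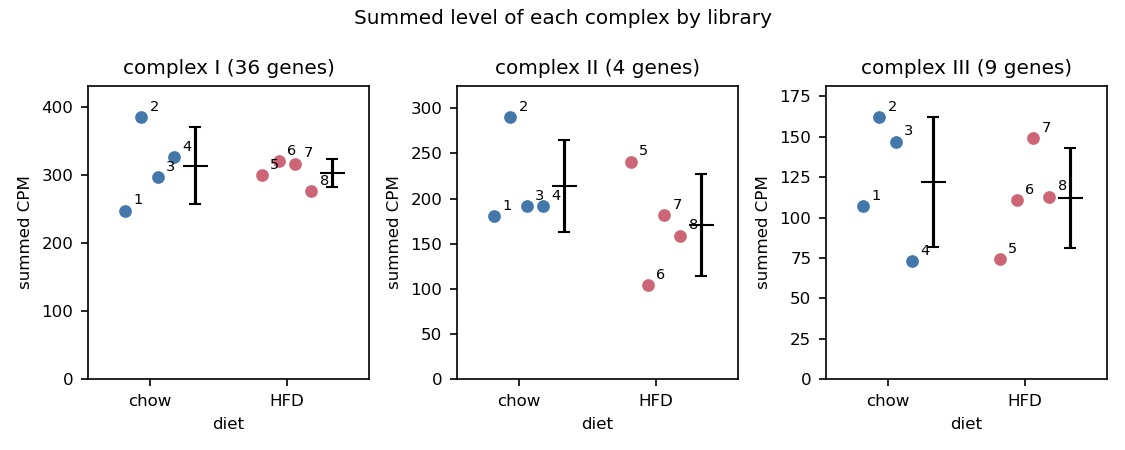
Summed CPM of the members of each complex, with 1 numbered point per library by diet and the mean ± SD beside each group of 4. In all 3 complexes the HFD points overlap the chow points, and chow replicate 2 is the highest library in each.

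Between the diets, edgeR's quasi-likelihood test with Benjamini-Hochberg adjustment over all genes called 0 of the 41 tested members, where it called 0 of 10129 genes (0.0%). At an unadjusted p under 0.05 there was 1 member, Uqcrq (2.44% of 41), against 542 genes (5.35%, of which 2.61% were higher on HFD and 2.74% lower). Diet groups did not overlap for 1 member of 49 (2.04%), or of the 41 tested (2.44%). This was Uqcr10, which was lower in HFD. Of all tested genes, 1.71% did not overlap in that direction, 1.68% in the other and 3.39% in either. Without a filter on low counts edgeR called 0.25% of genes and no member. A single gene makes up each of these shares, so they are read as near the background. In direction, 19 members had a log2 fold change above 0 and 22 below. The median log2 fold change was -0.10 over 29 complex I members (13 higher, 16 lower), 0.17 over the 4 of complex II (2 higher, 2 lower) and 0.09 over 8 of complex III (4 higher, 4 lower), beside -0.02 over all tested genes.

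The precision was low. Standard errors (SE) ran from 0.39 for Sdha to 1.51 for Ndufs7 on the log2 scale, with a median of 1.11 over the members against 0.75 over all tested genes. The 95% intervals of all 41 members reached a 2-fold change in at least 1 direction, and those of 31 reached it in both. Changes of that size were rarely detected on simulated data of this design. There 4.49% of 2-fold changes, 34.6% of 4-fold changes and 55.0% of 8-fold changes were called. These rates are for genes drawn from all tested genes, whose median level was 22.8 CPM, against 8.38 CPM for the tested members. Rates for the members alone were not obtained.

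**Figure D3:**
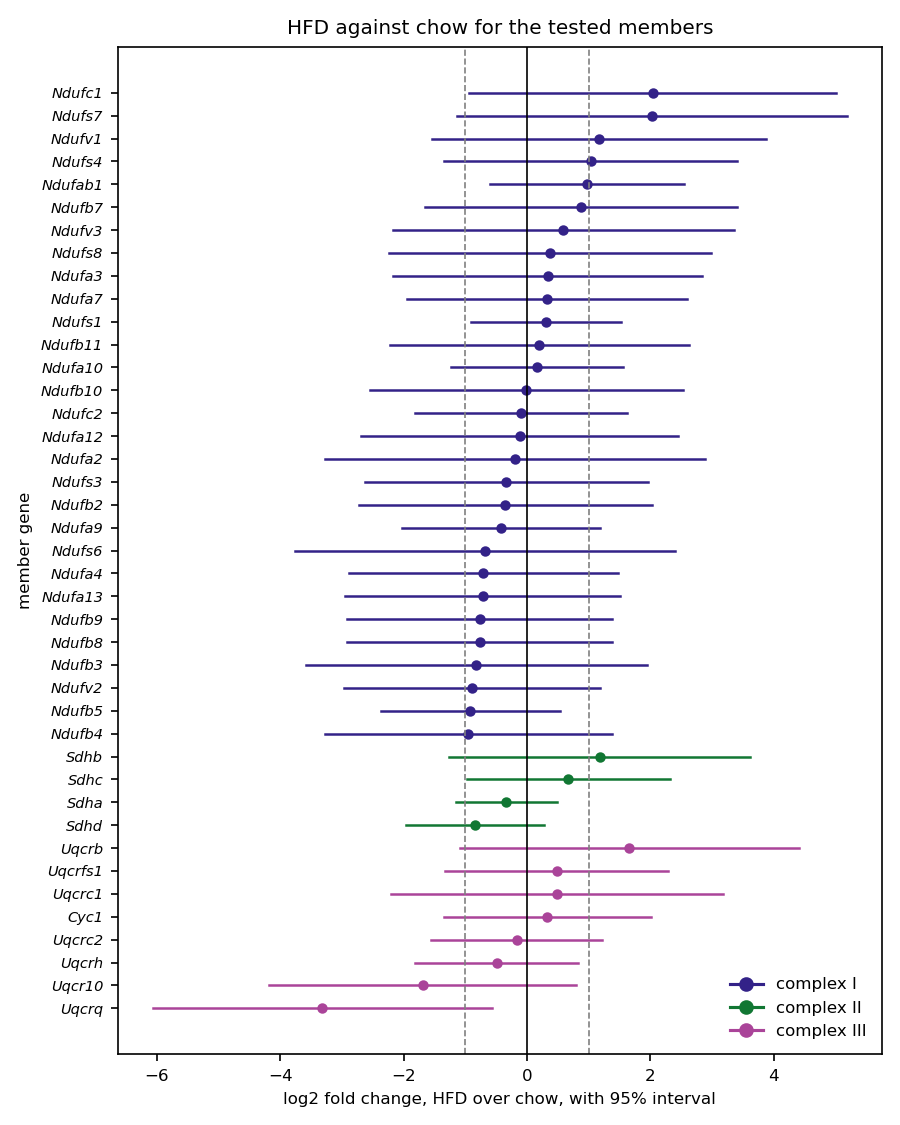
Log2 fold change of HFD over chow with its 95% interval for the 41 tested members, coloured by complex, with dashed lines at a 2-fold change. The interval of Uqcrq, from -6.07 to -0.57 before adjustment for the number of genes, is the only 1 that leaves out 0.

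Among the core subunits of complex I, which carry its cofactors and are shared with bacteria, Ndufs1, the largest iron-sulfur subunit, had the highest mean CPM, not scaled by length. It was at 26.3, 19.2, 31.7 and 46.5 CPM on chow, and 66.3, 39.8, 36.5 and 10.8 CPM on HFD. The HFD libraries held both its highest and its lowest value. Ndufs7, an iron-sulfur subunit next to the ubiquinone site, was at 0, 0.781, 6.22 and 0 CPM on chow, and 1.99, 6.43, 6.32 and 14.3 CPM on HFD. The log2 fold change was 2.03 (SE 1.51, edgeR adjusted p = 0.987). The gene was missing from 2 chow libraries, yet chow replicate 3 lay inside the HFD range. Without chow replicate 3 the log2 fold change was 4.57, with an unadjusted p of 0.023 and an adjusted p of 0.694 in edgeR. With limma-voom on all 8 libraries it was 3.85, with an unadjusted p of 0.0427 and an adjusted p of 0.866.

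Ndufv1, which binds NADH and the flavin, was at 4.49, 3.28, 1.45 and 0.708 CPM on chow, and 3.97, 3.13, 0.843 and 14.5 CPM on HFD. Its log2 fold change of 1.16 (SE 1.29, edgeR adjusted p = 0.987) rested on HFD replicate 8, as the other 3 HFD libraries lay within the chow range; without that library it was 0.09. The other core members were Ndufv2, at 1.66 to 32.3 CPM on chow and 2.74 to 20.7 CPM on HFD, Ndufs3, at 0.674 to 35.5 and 4.82 to 17.4 CPM, and Ndufs8, at 0 to 15.5 and 3.99 to 12.3 CPM. Of the 6 core members 4 had log2 fold changes above 0 and 2 below, with a median of 0.34, beside -0.02 for all tested genes.

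Among the accessory subunits of complex I, which surround and stabilise the core, Ndufc1, Ndufb5 and Ndufab1 had the smallest p values. Ndufc1, of the membrane arm, was at 0, 0.781, 1.04 and 2.36 CPM on chow, and 6.75, 1.04, 2.95 and 6.63 CPM on HFD. HFD replicates 5, 7 and 8 exceeded all chow libraries and replicate 6 did not, and the log2 fold change was 2.04 (SE 1.42, edgeR adjusted p = 0.987). Ndufc1 rests on 107 counts in all 8 libraries, and a stretch of it resembles parts of 7 other genes, among them Ube2e1 (98.21% identity over 112 bases), so its counts are uncertain.

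Ndufb5, also of the membrane arm, was at 38.0, 24.7, 13.1 and 29.7 CPM on chow, and 9.73, 22.9, 12.2 and 10.8 CPM on HFD. Chow replicate 3 and HFD replicate 6 were the libraries that overlapped the other diet, and the log2 fold change was -0.92 (SE 0.70, edgeR adjusted p = 0.987). Its exons share 12.3% of their bases with Mrpl47 on the opposite strand, and without strand information their reads cannot be told apart there. Ndufab1, the mitochondrial acyl carrier protein, which also serves fatty acid synthesis in mitochondria, was at 6.74, 18.6, 12.4 and 15.1 CPM on chow, and 48.7, 33.5, 9.91 and 11.6 CPM on HFD. HFD replicates 5 and 6 were above every chow library and replicates 7 and 8 were inside the chow range, with a log2 fold change of 0.97 (SE 0.75, edgeR adjusted p = 0.987).

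Ndufs4, an accessory subunit whose loss causes mitochondrial disease, was at 0.449, 9.05, 9.54 and 3.07 CPM on chow, and 6.95, 10.1, 25.5 and 2.81 CPM on HFD. HFD replicate 7 alone was far above the chow range (log2 fold change 1.03, SE 1.13), and without that library the value was lowest of all the alternatives tried, 0.26. Ndufa12, close to the NADH-binding arm, varied more than any other complex I member but Ndufs7. It was at 0.449, 20.8, 1.45 and 8.73 CPM on chow, and 7.95, 10.9, 9.27 and 0.803 CPM on HFD, low in 2 chow libraries and 1 HFD library.

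Of the remaining complex I members in the test, Ndufa10 and Ndufa9 had the highest mean CPM, not scaled by length. Ndufa10 was at 9.20 to 54.8 CPM on chow and 17.5 to 62.4 CPM on HFD. Ndufa9 was at 4.04, 27.0, 16.0 and 70.1 CPM on chow, and 10.3, 11.6, 32.5 and 33.1 CPM on HFD. Its highest value came from chow replicate 4, and without that library the log2 fold change turned from -0.42 (SE 0.76) to 0.47. Ndufa2, Ndufa3, Ndufa7, Ndufa13, Ndufb2, Ndufb3, Ndufb4, Ndufb7, Ndufb8, Ndufb9, Ndufb10, Ndufb11, Ndufs6 and Ndufv3 had means of 1.77 to 10.5 CPM over the 8 libraries and log2 fold changes of -0.95 (Ndufb4) to 0.87 (Ndufb7). Ndufa4, named as a complex I gene although its protein is now placed in complex IV, was at 2.28 to 30 CPM on chow and 1.41 to 12.5 CPM on HFD.

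The scarcest complex I genes gave few counts. Ndufa11 had 13 counts in all, at 0, 0.156, 0 and 1.89 CPM on chow, and 0, 0.695, 0 and 0 CPM on HFD, so that 5 of 8 libraries held none. Ndufa5 had 27 counts, at 2.47, 0.312, 1.24 and 0.944 CPM on chow, and 0.397, 0.347, 0 and 0 CPM on HFD, where a count of 0 allows up to 0.632 and 0.603 CPM. Ndufa1, Ndufa6 and Ndufb6 were at 0 in 3 libraries each.

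Complex II has 4 subunits, and each was tested. Sdha, the flavoprotein that oxidises succinate, was at 91.4, 203, 83.3 and 143 CPM on chow, and 171, 39.6, 102 and 101 CPM on HFD. Both extremes were single libraries, chow replicate 2 and HFD replicate 6, and the log2 fold change was -0.34 (SE 0.39, 95% interval -1.15 to 0.48, edgeR adjusted p = 0.987). Sdhb, the iron-sulfur subunit, was at 3.15, 1.25, 5.39 and 2.83 CPM on chow, and 6.55, 4.17, 5.06 and 12.9 CPM on HFD. HFD replicates 5 and 8 exceeded every chow library, with a log2 fold change of 1.18 (SE 1.17, edgeR adjusted p = 0.987).

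The membrane anchors Sdhc and Sdhd, which hold the ubiquinone site, had fold changes of opposite sign. Sdhc was at 20.4, 2.50, 15.8 and 23.1 CPM on chow, and 42.1, 9.90, 14.8 and 31.7 CPM on HFD (log2 fold change 0.67, SE 0.78). Sdhd was at 66.0, 83.4, 87.9 and 23.6 CPM on chow, and 21.3, 50.2, 60.5 and 13.9 CPM on HFD (log2 fold change -0.84, SE 0.54, 95% interval -1.96 to 0.28, edgeR adjusted p = 0.987). In Sdhd chow replicate 4 was the library that overlapped the HFD range, and without it the log2 fold change was -1.12 with an unadjusted p of 0.0487 and an adjusted p of 0.778. Whether the anchors differ from each other in their response was not tested.

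The member with the smallest p and the member without overlap of the diets were both in complex III. Uqcrq (chromosome 11, 53427922 to 53430831, minus strand), a small subunit of the ubiquinone-binding part, was at 13.5, 8.74, 18.9 and 1.65 CPM on chow, and 0.199, 0.521, 1.26 and 2.21 CPM on HFD. HFD replicate 8 was above chow replicate 4, and the other 3 HFD libraries were below every chow library. The values in HFD replicates 5 and 6 were no higher than the limit that a count of 0 allows there, 0.596 and 0.521 CPM. The log2 fold change was -3.32 (SE 1.31, edgeR adjusted p = 0.807), on 235 counts in all. The unadjusted p of the same edgeR fit across all genes was 0.0204, and it was 0.0529 without HFD replicate 5, 0.0541 without HFD replicate 6 and 0.0665 without chow replicate 3. With limma-voom the unadjusted p was 0.071 and the adjusted p 0.866. DESeq2 gave an adjusted p of 0.0904, and called 0.781% of the genes to which it gave an adjusted p.

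Uqcr10 (chromosome 11, 4701973 to 4704342, minus strand), another small accessory subunit, was at 11.2, 3.28, 12.2 and 3.78 CPM on chow, and 2.98, 2.43, 2.74 and 1.21 CPM on HFD. All 4 HFD libraries were below all 4 chow libraries, by a narrow margin from chow replicate 2, and the log2 fold change was -1.69 (SE 1.19, 95% interval -4.19 to 0.80, edgeR adjusted p = 0.987). A near-identical stretch, 95.81% over 191 bases, lies in 4930481A15Rik, which was at 13.3, 18.1, 7.88 and 6.37 CPM on chow and 0.397, 3.47, 11.6 and 2.41 CPM on HFD. The counting may have divided reads between these 2 genes, so the level of Uqcr10 is uncertain. Uqcrb, also a small subunit near the ubiquinone site, went the other way, at 0, 4.84, 1.66 and 3.07 CPM on chow and 6.75, 13.9, 5.69 and 4.22 CPM on HFD. HFD replicate 8 was the library that overlapped chow (log2 fold change 1.66, SE 1.31, edgeR adjusted p = 0.987).

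Stellate and fibroblast transcripts, higher in 3 of the 4 HFD libraries (393, 234 and 208 CPM in replicates 5, 6 and 7) than in any other library, were at 8.64 CPM on HFD replicate 8. The part of these transcripts in the levels of Uqcrq, Uqcr10 and Uqcrb was not tested.

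The subunits that carry electrons through complex III are the Rieske iron-sulfur protein, encoded by Uqcrfs1, and cytochrome c1, encoded by Cyc1. Uqcrfs1 was at 13.0, 12, 12.2 and 11.1 CPM on chow, and 3.97, 5.21, 29.3 and 28.9 CPM on HFD. The chow libraries were close together, whereas 2 HFD libraries lay below them and 2 above, with a log2 fold change of 0.48 (SE 0.87). Cyc1 was at 2.07 to 38.2 CPM on chow and 12.9 to 28.2 CPM on HFD. Over the 4 redox-carrying members of complexes II and III, Sdha, Sdhb, Uqcrfs1 and Cyc1, 3 had log2 fold changes above 0 and 1 below, with none past the threshold.

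The large core proteins of complex III, Uqcrc1 and Uqcrc2, face the matrix and belong to a family of processing peptidases. Uqcrc2 was at 20.7, 67.4, 37.5 and 7.08 CPM on chow, and 25.8, 19.4, 55.9 and 17.7 CPM on HFD. Uqcrc1 was at 0, 1.09, 16.2 and 6.37 CPM on chow, and 6.95, 14.4, 6.32 and 5.22 CPM on HFD. Neither gene separated the diets, with log2 fold changes of -0.16 (SE 0.66) and 0.48 (SE 1.28). The value of Uqcrc1 was 1.74 without chow replicate 3, 0.06 without chow replicate 1, 0.13 without chow replicate 2, 0.05 without HFD replicate 6 and 1.77 with limma-voom. Uqcrh, the acidic hinge protein that helps cytochrome c dock, was at 8.99, 42.0, 42.9 and 31.6 CPM on chow, and 13.7, 30.9, 19.6 and 25.1 CPM on HFD (log2 fold change -0.49, SE 0.63), with its lowest value in chow replicate 1. Uqcr11 had 59 counts, at 1.12, 0.156, 3.73 and 0.236 CPM on chow, and 0.795, 1.39, 0.422 and 4.02 CPM on HFD, with 1 high library in each diet.

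Levels can be set against each other only per length, here CPM per kilobase of the union of a gene's exons, averaged over the 8 libraries. In complex II Sdhd was at 41.3 ± 23.3 and Sdha at 28.3 ± 12.7 CPM per kb (SD, n = 8), a pair that did not differ beyond its spread, since Sdhd was the higher in 5 of 8 libraries. Sdhc followed at 6.17 ± 3.84 and Sdhb at 2.30 ± 1.57 CPM per kb, and Sdha was above Sdhc, and Sdhc above Sdhb, in 8 of 8 libraries. With the length of the principal transcript in place of the exon union, an alternative chosen after seeing the data, Sdhb was at 4.52 CPM per kb and Sdhc was above it in 5 of 8 libraries.

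In complex III Uqcrh led at 21.7 ± 10, followed by Uqcrc2 at 12.3 ± 8.12, Uqcrfs1 at 10.6 ± 7.06, Cyc1 at 9.22 ± 5.40 and Uqcr10 at 8.53 ± 7.26 CPM per kb. Uqcrb was at 5.72, Uqcrq at 3.20, Uqcr11 at 2.31 and Uqcrc1 at 1.71 CPM per kb. No 2 neighbours in this order were further apart than the larger of their SDs. On the principal transcript length, however, Uqcrh, at 49.1 ± 22.6 CPM per kb, was above Uqcrc2 in 8 of 8 libraries. Uqcrh then had the highest mean of all members, above Sdhd at 41.3 ± 23.3 and Sdha at 40.2 ± 18.1 CPM per kb. In complex I Ndufc2, of the membrane arm, was at 20.9 ± 9.22 and Ndufa9 at 12.2 ± 9.97 CPM per kb of exon union. Ndufa5 and Ndufa11 were lowest at 0.692 and 0.313 CPM per kb. On the principal transcript length Ndufa4 (20.9) and Ndufb5 (18.7) came between Ndufc2 (23.1) and Ndufa9 (17.7 CPM per kb). Ndufc2 itself was at 23.6, 24.2, 2.28 and 15.1 CPM on chow, and 11.5, 16.8, 15.0 and 17.7 CPM on HFD, low in chow replicate 3 alone.

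**Figure D4:**
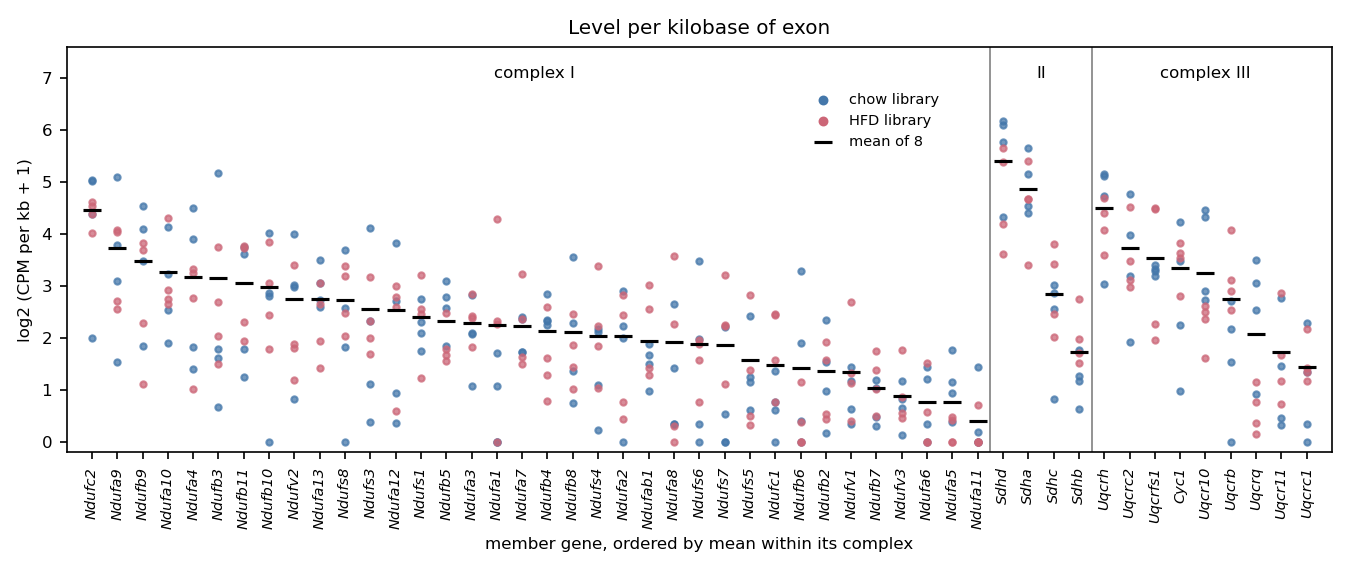
Level per kilobase of exon union as log2 (CPM per kb + 1) for all 49 members, ordered by mean within each complex, with 1 point per library coloured by diet and a black bar for the mean of 8. Sdhd and Sdha are the highest members by mean on this length, and the points of neighbouring genes overlap along most of the order.

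The other genes of the pathway gave no call either. None of the lists below held a gene past the threshold (edgeR with Benjamini-Hochberg adjustment, 0.0% of all genes). Nuclear-encoded complex IV had 6 genes with a log2 fold change above 0 and 5 below among 11 tested, with a median of 0.04. ATP synthase had 8 above and 8 below among 16, with a median of 0.01. Its gamma subunit gene Atp5c1, 1 of 16 at an unadjusted p under 0.05 (6.25% against 5.35% of all genes), was at 148, 155, 66.1 and 119 CPM on chow, and 46.1, 67.2, 89.4 and 65.9 CPM on HFD (log2 fold change -0.86, SE 0.35, adjusted p = 0.84).

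The mitochondrially encoded subunits of complexes I and III were far more abundant, with a sum over 8 genes of 18173 to 21556 CPM on chow and 12348 to 23487 CPM on HFD, beside 536 to 837 CPM for the 49 nuclear members. Of the 6 tested, 1 was above 0 and 5 below, with a median of -0.12 and SEs of 0.14 to 0.23. The membrane-arm core subunit gene mt-Nd2 was at 1899 ± 342 CPM on chow and 1602 ± 515 CPM on HFD (SD, n = 4). HFD replicate 5 was the lowest library of this sum.

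Assembly factors of complex I, which are needed to build it but are not part of it, had 1 of 10 tested genes above 0 and 9 below, with a median log2 fold change of -0.72. None of the 10 was at an unadjusted p under 0.05. The smallest p in that list was that of Acad9, at 124, 0.937, 9.74 and 9.68 CPM on chow and 16.7, 2.78, 10.3 and 8.03 CPM on HFD (log2 fold change -1.93, SE 1.03, edgeR adjusted p = 0.956), where chow replicate 1 alone was high. Foxred1 was the gene of that list whose diet groups did not overlap, 6.67% of 15 found (10 tested) against 3.39% of all tested genes. It was chosen after its values were seen. For complex III, the assembly factor gene Ttc19 was at 26.1, 43.2, 49.6 and 71.3 CPM on chow, and 17.7, 13.5, 12.6 and 28.5 CPM on HFD. HFD replicate 8 was the library that overlapped chow (log2 fold change -1.39, SE 0.56, edgeR adjusted p = 0.823), and 1 of the 4 tested genes of that list was above 0. Complex II assembly factors had 1 of 2 tested genes on each side of 0.

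Genes of the tricarboxylic acid cycle had 8 of 14 above 0 and a median of 0.40. Dld, a subunit shared by the mitochondrial dehydrogenase complexes, was at 49.9, 34.7, 39.8 and 66.1 CPM on chow, and 120, 59.0, 101 and 50.4 CPM on HFD (log2 fold change 0.80, SE 0.41, edgeR adjusted p = 0.94). Electron carriers and ubiquinone genes had 5 of 12 above 0 and a median of -0.10. Among regulators of mitochondrial biogenesis 4 of 9 tested genes were above 0, and Ppargc1a, Esrra and Polrmt did not pass the filter. Tfb1m, a methyltransferase of mitochondrial ribosomal RNA, was at 0, 0.937, 0 and 2.60 CPM on chow and 13.7, 5.38, 13.3 and 4.82 CPM on HFD (log2 fold change 3.37, SE 1.48, edgeR adjusted p = 0.893). Its diet groups did not overlap, the case for 8.33% of the 12 genes found of that list (9 tested) and 3.39% of all tested genes. Nrf1, whose motif was counted above, was at 15.3, 107, 18.7 and 41.8 CPM on chow and 14.3, 26.7, 3.79 and 21.5 CPM on HFD (log2 fold change -1.46, SE 0.72, edgeR adjusted p = 0.935), with chow replicate 2 far above the rest.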

How the data were processed

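RNA-seq of 8 sorted macrophage libraries was analysed, 4 per diet, prepared from 500 pg of RNA each. Reads were processed with FastQC, Trim Galore and STAR on GRCm38, per the submitters' processing notes; for versions, the annotation release and the program that counted, the sources used here gave nothing. The authors deposited unscaled expected counts per gene, and 9 of 392 member values were not whole; all were rounded before testing. The deposited symbols chose the members, and GENCODE M21 (GRCm38) gave lengths, coordinates and the names of other genes. Near-identical copies were aligned transcripts of other genes with at least 95% identity over at least 100 bases, found for 12 members.

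Genes were tested with edgeR (version 4.0.16) by a robust quasi-likelihood fit with TMM scaling, the filterByExpr filter and a model with diet alone; p-values were two-sided and adjusted by Benjamini-Hochberg over 10129 genes, with a threshold of 0.05. Intervals are the fold change plus or minus the t quantile times its SE. The step was tested on simulated data in which 200 of the 10129 genes changed, in 5 simulations. Alternatives were RLE, upper-quartile and total scaling, other filters, a fit that was not robust, DESeq2 (version 1.42.0), limma-voom with quality weights (limma version 3.58.1) and each library left out. Members and lists were chosen with earlier results of these data known. Genes described in full were those past the threshold, those without overlap of the diets, the smallest p in each complex (6, 4 and 3), the 2 highest and 2 lowest per kb in complexes I and III, the 3 with the largest SD, and at most 2 per further list; other names were chosen after their values were seen. Analyses ran in R (version 4.3.3).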

Additional observations from a re-analysis of the deposited data

Results flagged for a closer look

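A library was set apart from the other 3 of its diet where its gap to the nearest, as a share of the group's range, was above Dixon's 95% critical value. This was so in 4 of 50 groups. The critical value allows about 1 in 20 for normally distributed values. Low CPM with ties at 0 are not such values, and members named for a large SD are among the groups. The rate expected by chance is therefore not known here. The complex II sum of chow replicate 2 was 290 CPM against 181 to 192 CPM in the other chow libraries. Ndufs7 was at 6.22 CPM in chow replicate 3 and at no more than 0.781 CPM in the others. Ndufa11 was at 1.89 CPM in chow replicate 4 and at 0.695 CPM in HFD replicate 6, its single HFD library above 0. With the other HFD libraries at 0, the gap there was the whole range.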

How the results depend on the processing

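Members called at an adjusted p under 0.05 stayed at 0 under all 16 alternative fits, among them DESeq2, which called 93 genes, edgeR without a filter (45), limma-voom (1) and edgeR without HFD replicate 8 (11; 0 to 11 over the libraries left out). Members at an unadjusted p under 0.05 were 0 with at least 5 CPM in 4 libraries, where Uqcrq was not tested, and 0 to 2 with a library left out. The count was 1 with limma-voom and without chow replicate 3, but the member was then Ndufs7 in place of Uqcrq. The median log2 fold change of complex II was -0.33 with at least 5 CPM in 4 libraries, which removes Sdhb, and -0.18 (without HFD replicate 5) to 0.43 (without HFD replicate 6) with a library left out. The medians of complexes I and III changed sign too, from -0.43 (without chow replicate 1) to 0.31 (without chow replicate 3) and from -0.20 (without chow replicate 4) to 0.29 (without chow replicate 2), and that of complex I was 0.25 with limma-voom. Of 19 tested members described in full, 15 kept their direction throughout. The others turned above 0 with a library left out or with limma-voom. Ndufa9 (lowest value -0.78) was 0.47 without chow replicate 4. Ndufc2 (lowest value -0.46) was 0.13, 0.16 and 0.02 without chow replicate 1, chow replicate 2 and HFD replicate 5, and 0.25 with limma-voom. Uqcrc2 (lowest value -0.66) was 0.45 and 0.01 without chow replicate 2 and HFD replicate 8, and 0.19 with limma-voom. Ndufa12 (lowest value -0.51) was 1.03 and 0.25 without those libraries, and 0.23 with limma-voom. The cause was not tested. No paired analysis was possible because the diets share no replicate numbers. At these depths 8 members had too few counts to test, 6 of them under 700 bases.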
